A study of Mus musculus with 10 samples.

Results

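The 34 genes described here encode enzymes, carriers and regulators of fatty acid and triglyceride synthesis in the liver. They were taken by name from a list that covers lipogenesis, NADPH supply, desaturation, elongation and triglyceride assembly. The list holds 34 of the 16647 genes with counts, and all 34 passed the filter on low counts that left 13219 genes for testing. The livers came from male mice humanized for the nuclear receptors PXR and CAR and for the CYP3A4/3A7 region (a Taconic model), a genotype that both groups share. MI-883, described by the study as a CAR agonist and PXR antagonist, was given to 5 mice by gavage at 5 mg/kg on 3 days per week, and 5 control mice received the vehicle (5% DMSO, 5% PEG300 and 90% corn oil) on the same schedule. The mice were 10 to 15 weeks old when a high-fat diet (HFD) began. They were fed it for 8 weeks and were then treated for 4 weeks, during which the HFD went on. All livers are therefore from 1 genotype, 1 diet and 1 dose, and no liver from another diet was analysed here. Each library is 1 animal.

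In the hepatocyte, fatty acids are made from citrate that leaves the mitochondrion and is cleaved to acetyl-CoA in the cytosol, where it is carboxylated to malonyl-CoA and joined by fatty acid synthase into palmitate, with NADPH as the reductant. Palmitate is then elongated and desaturated, and the chains are esterified to glycerol to form phospholipids and triglycerides. In the liver, the transcription factor SREBP-1c, a product of *Srebf1*, is known to raise most of these enzymes in the fed state, together with the sugar sensor ChREBP and the liver X receptors.

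Between 23513665 and 36221514 reads per liver were counted on genes. Levels are given as CPM, the counts per 1000000 counts of a library after TMM scaling, with the S.D. over 5 livers, and SE stands for the standard error of the log2 fold change. Comparison of genes with each other uses CPM per kilobase of exon. Of the 34 genes, 30 had at least 726 counts in every liver. The other 4 were *Pnpla5* (17 to 66 counts), *Scd2* (60 to 297), *Pnpla3* (87 to 385) and *G6pdx* (110 to 266), and their values are the least precise. The hepatocyte markers *Alb*, *Ttr*, *Hnf4a*, *Asgr1*, *Cps1* and *Tat* were present in all livers. In MI-883-treated livers 6 of these 6 had a negative log2 fold change, none with an adjusted P under 0.05 in edgeR or DESeq2 and 1, *Ttr*, with an unadjusted P under 0.05 in edgeR. For *Ttr* the highest MI-883-treated liver (5865 CPM) was below the lowest control liver (6034 CPM), as in 1.93% of all tested genes. The summed level of the hepatocyte markers was 62609 to 72366 CPM in control and 54140 to 65432 CPM in MI-883-treated livers. Since these are bulk samples, fewer cells of a type and less RNA per cell cannot be told apart.

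MI-883 treatment was followed by a lower level of 1 of the 34 genes, *Srebf1*, at an adjusted P under 0.05 (edgeR quasi-likelihood test, Benjamini-Hochberg over all tested genes), and by a higher level of 0. The adjusted P of the Wald test of DESeq2 was under 0.05 for *Srebf1*, the desaturase gene *Scd1* and the carboxylase partner *Mid1ip1*, which were lower, and for the elongase gene *Elovl1* and the transketolase gene *Tkt*, which were higher. The 1 lower gene in edgeR is 2.94% of the 34, where 0.265% of all tested genes were called lower and 0.764% higher. In DESeq2 the 3 lower genes are 8.82% of the 34 against 1.30% of all tested genes, and the 2 higher genes 5.88% against 2.20%. At an unadjusted P under 0.05 in edgeR, 6 of the 34 genes were higher and 3 lower, where 8.09% and 7.49% of all tested genes were. In TMM-scaled CPM, the highest MI-883-treated liver was below the lowest control liver in 2 genes, *Srebf1* and *Scd1*, as in 1.93% of all tested genes. In 0 of the 34 was the lowest MI-883-treated liver above the highest control liver, as in 2.05%. Without TMM scaling the groups overlapped for both *Srebf1* and *Scd1*.

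The log2 fold changes of the 34 genes lay between -0.58 and 0.55, and 21 were positive and 13 negative. Their median was 0.051, and that of all tested genes was 0.0045. With scaling by total counts these medians were 0.093 and 0.049. By step, the median was -0.44 for the 3 regulators, 0.18 for the 5 genes of chain synthesis, 0.31 for the 5 genes of NADPH supply and citrate export, -0.10 for the 4 desaturases, 0.069 for the 7 genes of elongation and -0.012 for the 10 genes of assembly. All 5 genes of chain synthesis and all 5 of NADPH supply and citrate export had positive values, also with scaling by total counts. The median of assembly changed sign with total counts, where it was 0.032. At an unadjusted P under 0.05 in edgeR, 1 gene of chain synthesis, 3 of NADPH supply and citrate export and 2 of elongation were higher. By the same rule 2 regulators and 1 desaturase were lower. Of all tested genes, 8.09% were higher and 7.49% lower by this rule.

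**Figure D1:**
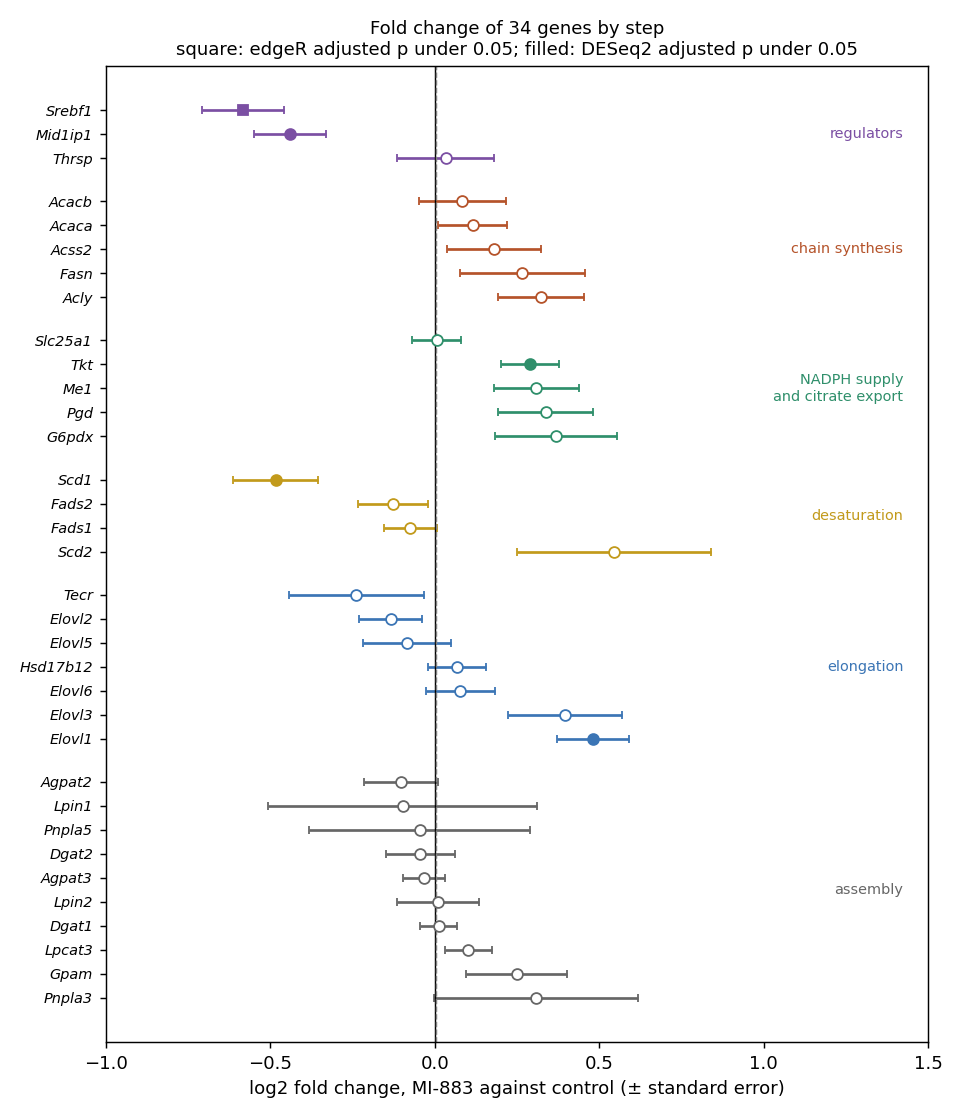
Log2 fold change of each of the 34 genes in MI-883-treated against control livers (x axis, bars: standard error), ordered by step on the y axis. The square marks *Srebf1* (-0.58), the gene with an adjusted P under 0.05 in edgeR, and filled symbols mark the 5 genes called by DESeq2. The genes of chain synthesis and of NADPH supply and citrate export lie to the right of 0.

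Among the regulators, *Srebf1* (Entrez gene 20787, chromosome 11, 60199084 to 60224186, GRCm38) encodes the membrane-bound precursor of SREBP-1, and its count adds up all transcripts of the gene, so that the 1a and 1c forms are not told apart. *Srebf1* stood at 440.5, 385, 611, 488 and 505 CPM in control livers 1 to 5 and at 276, 308, 384, 355 and 299 CPM in MI-883-treated livers 1 to 5. The highest MI-883-treated liver (383.9 CPM) was just below the lowest control liver (384.5 CPM), and control liver 3 was the highest of all 10. That separation rests on TMM scaling, with factors of 1.10 for MI-883-treated liver 3 and 1.01 for control liver 2. Without the scaling MI-883-treated liver 3 stood above control liver 2, and the groups overlapped. The mean fell from 486 ± 84.3 to 324 ± 44.2 CPM, which is 66.8% of the control mean, a log2 fold change of -0.58 (SE 0.125, adjusted P = 0.047 from edgeR and 0.00069 from DESeq2). By the exact two-sided permutation test on TMM-scaled log2 CPM, P was 0.00794, the smallest that 5 livers against 5 allow. In the fits without 1 liver the log2 fold change stayed between -0.65 and -0.49, while the call was lost in 7 of the 10. The adjusted P from edgeR was 0.0416, 0.0355 and 0.0442 without control 1, control 2 or MI-883-treated 3, and between 0.0582 and 0.131 without any one of the other 7 livers. With scaling by total counts it was 0.0662, at a log2 fold change of -0.53.

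RefSeq windows upstream of transcription starts (GRCm38.p6) were found for 28 of the 34 genes, 37 windows in all, and not for *Scd1*, *Scd2*, *Fads1*, *Elovl3*, *Dgat1* and *Dgat2*. The windows of the genes that DESeq2 called and that have one are given here, to show the sequence that lies before the starts of *Srebf1*, *Mid1ip1*, *Elovl1* and *Tkt*. Each is the 250 bases before a start, 5′ to 3′ on the strand of the gene, and *Srebf1* has 3 starts and *Elovl1* 2. Capitals mark the motifs CCAAT and GGGCGG (the GC box) and the nuclear receptor half-site AGGTCA, on either strand, and where capitals run together motifs adjoin or overlap.
Srebf1, chr11:60222582-60222831, minus strand: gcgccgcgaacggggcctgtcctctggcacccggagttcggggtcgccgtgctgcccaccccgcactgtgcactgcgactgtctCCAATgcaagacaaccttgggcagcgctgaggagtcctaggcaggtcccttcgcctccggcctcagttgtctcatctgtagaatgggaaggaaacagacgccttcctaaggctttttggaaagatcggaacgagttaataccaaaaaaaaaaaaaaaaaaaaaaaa
Srebf1, chr11:60220628-60220877, minus strand: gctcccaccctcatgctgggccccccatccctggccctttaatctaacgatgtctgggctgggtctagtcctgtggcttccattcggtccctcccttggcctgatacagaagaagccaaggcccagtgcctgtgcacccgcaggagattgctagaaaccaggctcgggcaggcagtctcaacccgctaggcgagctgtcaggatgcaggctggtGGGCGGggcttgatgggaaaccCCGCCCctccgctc
Srebf1, chr11:60210472-60210721, minus strand: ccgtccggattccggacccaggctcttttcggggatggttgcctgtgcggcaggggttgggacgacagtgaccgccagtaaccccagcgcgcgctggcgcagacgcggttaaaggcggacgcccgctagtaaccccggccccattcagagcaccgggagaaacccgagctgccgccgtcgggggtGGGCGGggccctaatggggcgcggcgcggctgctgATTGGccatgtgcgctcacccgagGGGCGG
Mid1ip1, chrX:10717115-10717364, plus strand: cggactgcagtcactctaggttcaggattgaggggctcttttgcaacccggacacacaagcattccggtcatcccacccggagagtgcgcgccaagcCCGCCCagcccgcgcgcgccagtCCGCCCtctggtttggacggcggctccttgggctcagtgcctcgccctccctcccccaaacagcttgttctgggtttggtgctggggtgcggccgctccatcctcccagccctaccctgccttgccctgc
Elovl1, chr4:118427843-118428092, plus strand: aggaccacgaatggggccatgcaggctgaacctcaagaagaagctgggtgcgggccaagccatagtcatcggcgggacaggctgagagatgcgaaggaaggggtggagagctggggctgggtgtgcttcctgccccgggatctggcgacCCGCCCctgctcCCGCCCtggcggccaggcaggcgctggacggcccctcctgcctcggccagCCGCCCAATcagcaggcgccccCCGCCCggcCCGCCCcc
Elovl1, chr4:118429451-118429700, plus strand: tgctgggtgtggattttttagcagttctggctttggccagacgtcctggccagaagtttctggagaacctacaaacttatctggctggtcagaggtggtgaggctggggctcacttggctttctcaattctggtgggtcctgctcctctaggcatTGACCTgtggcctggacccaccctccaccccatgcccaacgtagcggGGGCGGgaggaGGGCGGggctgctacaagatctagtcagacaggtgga
Tkt, chr14:30548881-30549130, plus strand: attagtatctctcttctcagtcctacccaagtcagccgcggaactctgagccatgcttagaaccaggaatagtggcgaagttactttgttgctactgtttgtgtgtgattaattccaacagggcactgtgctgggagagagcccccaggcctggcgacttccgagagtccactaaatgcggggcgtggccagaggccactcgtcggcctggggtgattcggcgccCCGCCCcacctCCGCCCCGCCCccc
The windows of *Srebf1* at chr11:60222582-60222831 and chr11:60210472-60210721 hold a CCAAT motif and those at chr11:60220628-60220877 and chr11:60210472-60210721 hold GC boxes. *Mid1ip1* and *Tkt* hold GC boxes only, and the second window of *Elovl1* holds the half-site. Over all 37 windows, 48.6% held CCAAT and 62.2% a GC box, against 33.8% and 32.7% of all 32851 RefSeq windows of the same length. The half-site was in 13.5% against 14.0%, and the E-box CACGTG in 10.8% (*Elovl5*, *Lpin2*, *Pnpla5* and *Slc25a1*) against 6.02%. The letters TCACNCCAC, a form of the sterol response element, were in 0 of the 37 windows and in 1.05% of all. Other forms of the element, other starts and genes without a window were not searched, so this 0 does not show that the genes lack the element. Windows of 1 gene can overlap, and a match is a description of letters, not of a bound site.

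*Mid1ip1* (Entrez gene 68041, chromosome X, 10717365 to 10719702) encodes a partner of acetyl-CoA carboxylase that promotes its assembly into active filaments. Its level was 79.9, 54.6, 85.0, 86.2 and 80.3 CPM in control livers 1 to 5 and 54.0, 60.1, 60.9, 54.6 and 54.6 CPM in MI-883-treated livers 1 to 5. Control liver 2 lay among the MI-883-treated livers, and the other 4 control livers lay above all of them. The log2 fold change was -0.44 (SE 0.109, adjusted P = 0.0814 from edgeR and 0.0113 from DESeq2). The adjusted P from edgeR was 0.0033 without control liver 2, the liver that overlapped, and between 0.0987 and 0.190 without any one of the other 9. Removing the liver that overlaps favours a lower P, so the value of 0.0033 is no added evidence. Of its exon bases, 25.5% lie opposite *Gm14493* and 16.7% of its 100-base stretches also occur there, and the strand setting of the counting is not given in the sources used here.

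*Thrsp* (Entrez gene 21835, chromosome 7, 97412933 to 97417550), which encodes the thyroid hormone responsive protein Spot 14 and is the paralog of *Mid1ip1*, was the most abundant regulator, at 794 CPM per kilobase in control livers against 86.2 for *Srebf1* and 36.3 for *Mid1ip1*. It stood at 1571, 1619, 1679, 1799 and 2018 CPM in control livers 1 to 5 and at 1910.1, 2064, 1357, 2225 and 1331 CPM in MI-883-treated livers 1 to 5. The MI-883-treated livers spread on both sides of the control group, with livers 3 and 5 below all controls and livers 2 and 4 above. The log2 fold change was 0.033 (SE 0.147, adjusted P = 0.935 from edgeR), a value whose sign changed when single livers were left out.

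**Figure D2:**
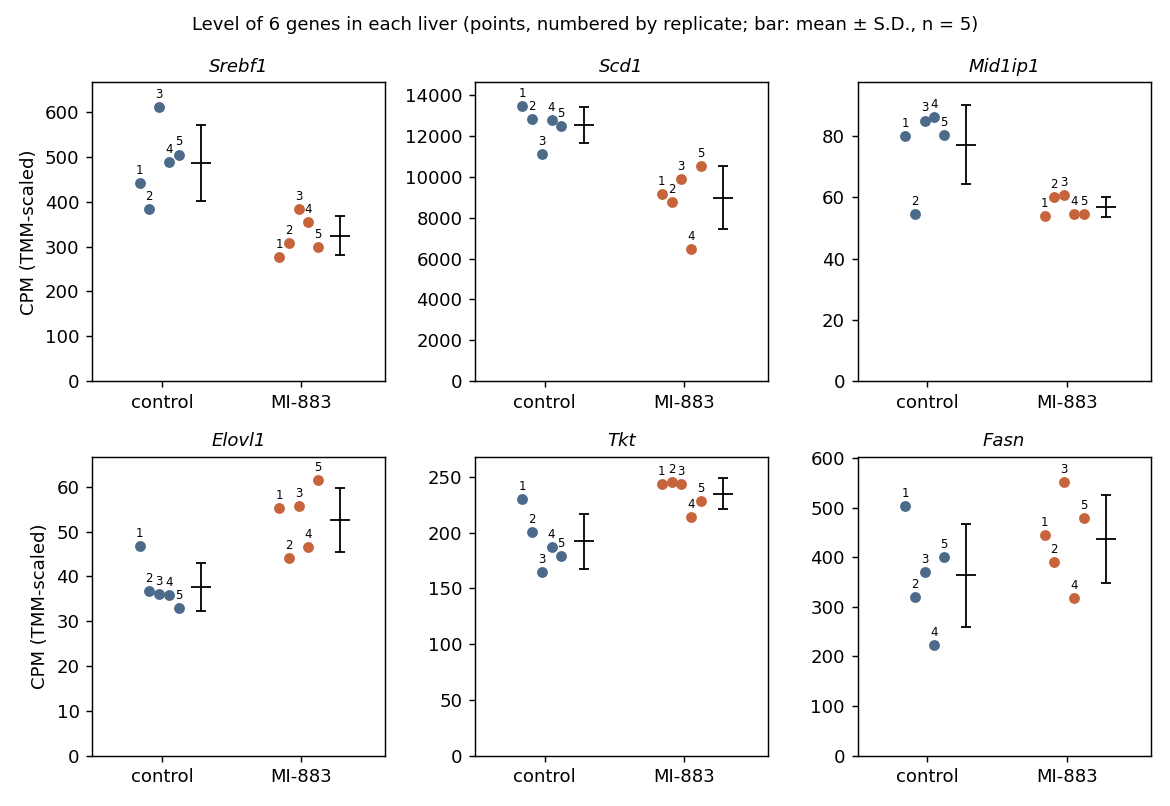
Level of 6 genes in each liver (y axis, TMM-scaled CPM from 0; points numbered by replicate; bars: mean ± S.D., n = 5) in control and MI-883-treated mice. For *Srebf1* and *Scd1* the groups do not overlap. For *Mid1ip1*, *Elovl1* and *Tkt* 1 control liver reaches into the MI-883-treated range, at 54.6, 46.8 and 229.9 CPM, and for *Fasn* the groups overlap.

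The 5 genes of chain synthesis had log2 fold changes from 0.083 to 0.32, and 0 of them passed the threshold in edgeR or DESeq2 (1 higher, *Acly*, at an unadjusted P under 0.05 in edgeR). *Acly* (Entrez gene 104112, chromosome 11, 100476352 to 100528000), which cleaves citrate to acetyl-CoA, was the most abundant per kilobase, at 45.5 CPM per kilobase in control livers. It was measured at 315, 201, 221, 211 and 253 CPM in control livers 1 to 5 and at 351, 277, 319, 239 and 315 CPM in MI-883-treated livers 1 to 5. The control median was exceeded in all 5 MI-883-treated livers, while control livers 1 and 5 lay within their range. The log2 fold change was 0.32 (SE 0.132, adjusted P = 0.264 from edgeR, exact two-sided permutation test P = 0.0794).

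*Fasn*, fatty acid synthase, ranged from 223 to 503 CPM in control and from 319 to 552 CPM in MI-883-treated livers, with control liver 4 the lowest and MI-883-treated liver 3 the highest. Its log2 fold change was 0.27 (SE 0.191, adjusted P = 0.528 from edgeR). *Acss2*, which activates acetate, was at 182 ± 30.3 and 206 ± 42.1 CPM, with a log2 fold change of 0.18, and 9.12% of its exon bases lie opposite other genes. The acetyl-CoA carboxylases are *Acaca*, whose product is in the cytosol and feeds synthesis, and *Acacb*, whose product at the mitochondrion restrains fatty acid oxidation. *Acaca* was at 89.7 ± 14.2 and 97.1 ± 8.97 CPM and *Acacb* at 174 ± 37.8 and 184 ± 20.5 CPM, with log2 fold changes of 0.12 and 0.083, the latter -0.0011 without control liver 4. Of the 100-base stretches of *Acaca*, 23.6% also occur in *Gm5182*, so that its level depends on how shared reads were assigned. Within a liver, *Acacb* had 1.46 to 2.60 counts per count of *Acaca* in control and 1.52 to 2.04 in MI-883-treated livers. This log2 ratio differed by -0.022 (exact two-sided permutation test P = 0.937).

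In the step of NADPH supply and citrate export, *Slc25a1* (Entrez gene 13358, chromosome 16, 17925211 to 17928219), the mitochondrial citrate carrier, was the most abundant per kilobase, at 149.7 CPM per kilobase in control livers. It stood at 342, 304, 320.0, 313 and 341 CPM in control livers 1 to 5 and at 322, 324, 286, 354 and 342 CPM in MI-883-treated livers 1 to 5. MI-883-treated liver 3 lay below all control livers, and livers 4 and 5 lay above them, liver 5 by 342.1 against 341.6 CPM. The control range held the other 2, and the log2 fold change was 0.0069 (SE 0.0745, adjusted P = 0.977 from edgeR), its sign changing when single livers were left out.

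*Tkt* (Entrez gene 21881, chromosome 14, 30549131 to 30574724) encodes transketolase of the nonoxidative pentose phosphate pathway. It was measured at 229.9, 200.5, 165, 187 and 179 CPM in control livers 1 to 5 and at 244, 246, 244, 214 and 228 CPM in MI-883-treated livers 1 to 5. Control liver 1 lay within the range of the MI-883-treated livers, and the other 4 control livers lay below it. The log2 fold change was 0.29 (SE 0.0890, adjusted P = 0.156 from edgeR and 0.0484 from DESeq2). The adjusted P in edgeR was 0.0451 without control liver 1, which overlapped, and 0.121 to 0.290 without any one of the other 9 livers. Since removal of the overlapping liver favours a lower P, the value of 0.0451 is no added evidence.

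The 3 enzymes that reduce NADP+ had log2 fold changes of similar size with wider errors. They were 0.31 (SE 0.129) for *Me1*, the cytosolic malic enzyme, 0.34 (SE 0.145) for *Pgd*, phosphogluconate dehydrogenase, and 0.37 (SE 0.186) for *G6pdx*, glucose-6-phosphate dehydrogenase. Their adjusted P values were 0.277, 0.284 and 0.356 in edgeR. *Me1* was at 339 ± 61.8 CPM in the control group and 419.8 ± 52.7 CPM with MI-883, *Pgd* at 71.4 ± 16.4 and 90.2 ± 13.2 CPM, and *G6pdx* at 5.28 ± 0.826 and 6.82 ± 1.94 CPM. Control liver 1 was the highest of its group in each of them and in *Tkt*. Of the exon bases of *G6pdx* 13.6% lie opposite *Ikbkg*, and of the 100-base stretches of *Me1* 14.6% also occur in other genes.

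Among the desaturases, *Scd1* (Entrez gene 20249, chromosome 19, 44394450 to 44407709) encodes stearoyl-CoA desaturase 1, which makes oleate and palmitoleate from saturated chains. *Scd1* was measured at 13441, 12833, 11109.6, 12794 and 12462 CPM in control livers 1 to 5 and at 9161, 8772, 9889.8, 6488 and 10516 CPM in MI-883-treated livers 1 to 5. No MI-883-treated liver reached the lowest control liver, and MI-883-treated liver 4 was the lowest of all. The level in MI-883-treated livers was 71.6% of the control mean, a log2 fold change of -0.48 (SE 0.129, adjusted P = 0.105 from edgeR and 0.0029 from DESeq2). Across the 10 fits without 1 liver, the adjusted P from edgeR was between 0.108 and 0.204 and the log2 fold change between -0.55 and -0.39. As a share of all counts of a library, without TMM scaling, *Scd1* held 1.08% to 1.41% in control and 0.620% to 1.09% in MI-883-treated livers, where the groups overlapped.

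*Scd1* had 2561 CPM per kilobase in control livers, above every other gene of the 34, and held 54.4% ± 2.20 of the counts of the 34 genes in control and 45.9% ± 4.44 in MI-883-treated livers. The summed level of the 34 genes was 23025 ± 1038 CPM in the control group and 19431 ± 1654 CPM with MI-883, without overlap between the groups. With *Scd1* taken out, the sums were 10498 ± 574 and 10465 ± 357 CPM, with overlap. 

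*Scd2*, the paralog that is known mainly from brain and fat tissue, was at 1.07 CPM per kilobase in control livers. It ranged from 2.45 to 9.0 CPM in control and from 5.13 to 10.9 CPM in MI-883-treated livers, with a log2 fold change of 0.55 (SE 0.295, adjusted P = 0.394 from edgeR), the largest positive value of the 34. *Fads2* and *Fads1*, which act in turn on polyunsaturated chains, were at 729 ± 102 and 667 ± 70.8 CPM and at 881 ± 74.3 and 837 ± 48.7 CPM, with log2 fold changes of -0.13 and -0.075. Neither passed the threshold in edgeR or DESeq2.

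Ratios of genes within a liver do not depend on scaling between libraries. The 6 pairs were chosen with earlier results of these data known. A ratio restates the levels of its genes given above and is no separate evidence. *Scd1* had 26.7, 40.2, 30.1, 57.3 and 31.1 counts per count of *Fasn* in control livers 1 to 5 and 20.6, 22.4, 17.9, 20.4 and 22.0 in MI-883-treated livers 1 to 5. The groups did not overlap, and the MI-883-treated livers lay closer together than the controls. The log2 ratio was lower by 0.79 in MI-883-treated livers (difference -0.79, standard error 0.204, exact two-sided permutation test P = 0.00794, 0.0476 after Benjamini-Hochberg adjustment over 6 ratios). The adjusted P of this ratio was between 0.0635 and 0.0952 (same exact test) without MI-883-treated liver 1, 3, 4 or 5.

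The ratio of *Scd2* to *Scd1* was higher in MI-883-treated livers by 1.14 on the log2 scale (SE 0.363, exact two-sided permutation test P = 0.0159, adjusted 0.0476). It uses the same *Scd1* counts as the ratio of *Scd1* to *Fasn*, so these ratios are not independent. The groups overlapped, since MI-883-treated liver 2 lay below control liver 2. In 8 of the 10 sets with 1 liver left out, its adjusted P was between 0.0635 and 0.119 (same exact test), the exceptions being those without control liver 2 or MI-883-treated liver 2. *Scd2* shares 0.879% of its 100-base stretches with *Scd1*, which had the far higher count. The other 3 ratios did not pass the adjusted threshold. The log2 ratio of *Elovl5* to *Elovl6* differed by -0.17 (exact two-sided permutation test P = 0.206), that of *Dgat2* to *Dgat1* by -0.058 (P = 0.587) and that of *Lpin2* to *Lpin1* by 0.10 (P = 0.817).

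**Figure D3:**
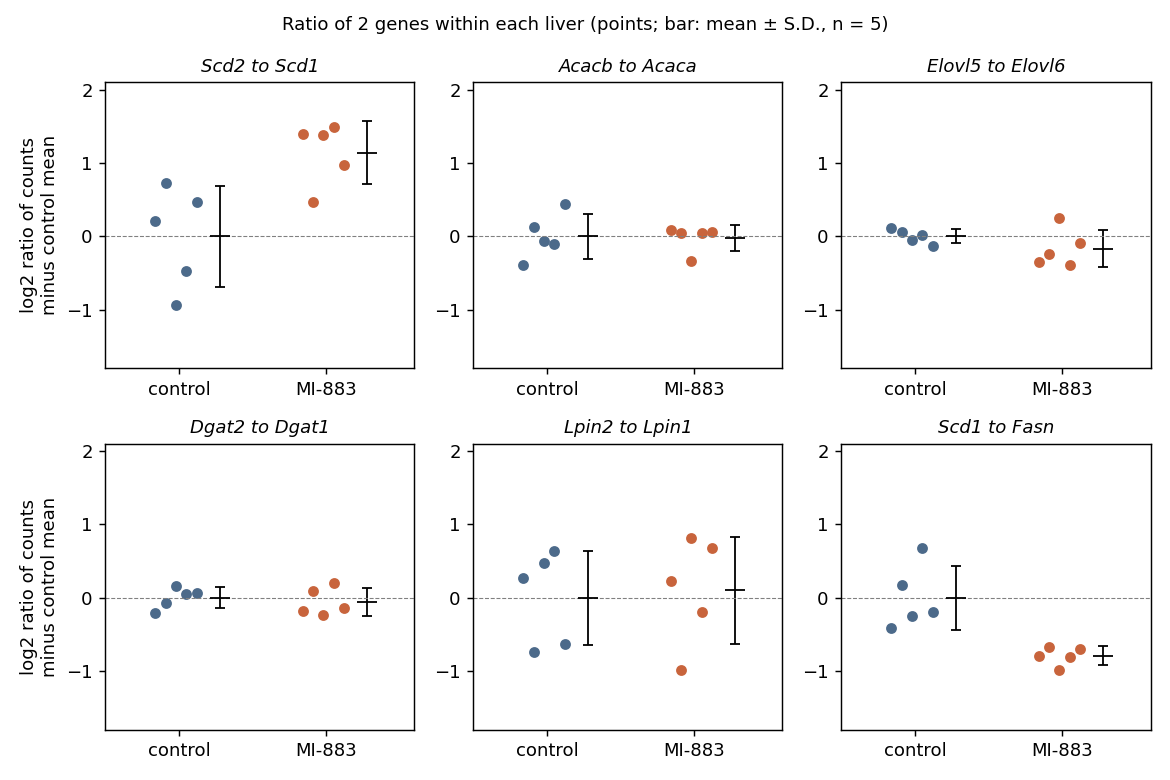
Log2 ratio of the counts of a pair of genes within each liver, minus the mean of the control livers (y axis), for 6 pairs in control and MI-883-treated mice (points: livers, bars: mean ± S.D., n = 5). The ratio of *Scd1* to *Fasn* is lower in every MI-883-treated liver (difference -0.79), that of *Scd2* to *Scd1* is higher with overlap (1.14), and the other 4 differ by -0.17 to 0.10.

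The 7 genes of elongation had log2 fold changes from -0.24 to 0.48. *Elovl1* (Entrez gene 54325, chromosome 4, 118426874 to 118432953), an elongase of very long saturated and monounsaturated chains, was measured at 46.8, 36.7, 36.1, 35.9 and 32.9 CPM in control livers 1 to 5 and at 55.1, 44.0, 55.7, 46.6 and 61.5 CPM in MI-883-treated livers 1 to 5. Control liver 1 lay above MI-883-treated livers 2 and 4, and the other 4 control livers lay below all MI-883-treated livers. The log2 fold change was 0.48 (SE 0.110, adjusted P = 0.0582 from edgeR and 0.0038 from DESeq2). Leaving out the overlapping control liver 1 gave an adjusted P of 0.0161 in edgeR, which that choice of liver favours and which is no added evidence. Leaving out any other liver gave 0.0566 to 0.150.

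*Elovl5* (Entrez gene 68801, chromosome 9, 77917365 to 77984519), an elongase of polyunsaturated chains, was the most abundant gene of elongation, at 280.1 CPM per kilobase in control livers, and *Elovl1* the least, at 13.8. *Elovl5* stood at 1130.4, 995, 798, 1044 and 965 CPM in control livers 1 to 5 and at 996, 913, 1108, 653 and 986 CPM in MI-883-treated livers 1 to 5. Apart from MI-883-treated liver 4, the lowest of all, the MI-883-treated livers lay within the control range. The log2 fold change was -0.083 (SE 0.134, adjusted P = 0.795 from edgeR), and it was 0.021 without MI-883-treated liver 4.

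*Elovl2*, which lengthens the long polyunsaturated chains further, was at 889 ± 82.1 CPM in the control group and 811 ± 86.6 CPM with MI-883 (log2 fold change -0.13). *Elovl3*, an elongase of saturated and monounsaturated chains, was at 87.8 ± 20.2 and 116 ± 26.1 CPM, with a log2 fold change of 0.40 (SE 0.173, adjusted P = 0.291 from edgeR). *Elovl6*, which extends palmitate to stearate, was at 182 ± 18.0 and 192 ± 28.7 CPM (0.078). Of the enzymes that complete each cycle of elongation, *Hsd17b12*, the ketoacyl-CoA reductase, was at 226 ± 13.5 and 237 ± 28.3 CPM (0.069) and *Tecr*, the enoyl-CoA reductase, at 199 ± 37.3 and 169 ± 56.4 CPM (-0.24). *Tecr* was at 102 CPM in MI-883-treated liver 4 and at 128 CPM in MI-883-treated liver 5, below all control livers, whose lowest was 154 CPM. Neither edgeR nor DESeq2 gave any of these 5 genes an adjusted P under 0.05.

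**Figure D4:**
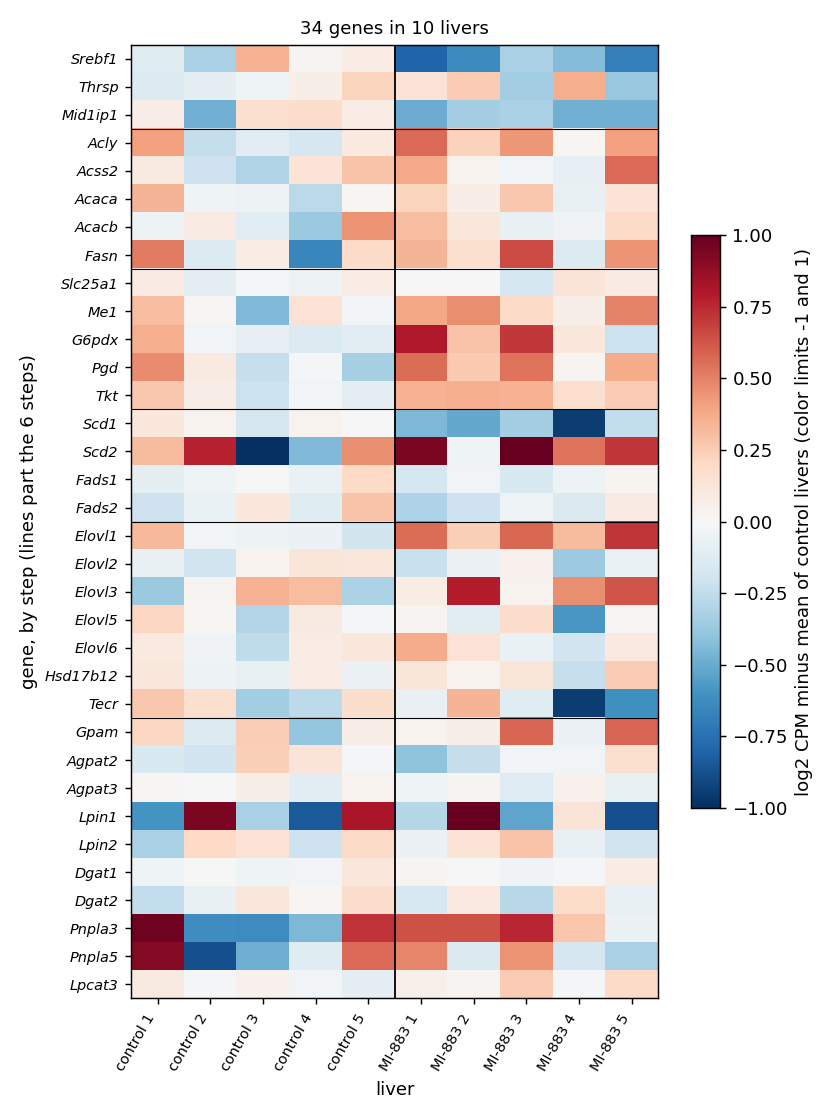
Log2 CPM of the 34 genes (y axis, in 6 blocks by step) in the 10 livers (x axis), minus the mean of the control livers, with colors limited to -1 and 1. The rows of *Srebf1* and *Scd1* are blue in all 5 MI-883-treated livers, and the column of MI-883-treated liver 4 shows low *Scd1*, *Elovl5* and *Tecr* (6488, 653 and 102 CPM).

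In assembly, 5 genes had positive and 5 negative log2 fold changes, from -0.10 to 0.31, and 0 of 10 passed the threshold in edgeR or DESeq2 (0 at an unadjusted P under 0.05 in edgeR). *Dgat2* (Entrez gene 67800, chromosome 7, 99153663 to 99182713), which with *Dgat1* adds the last acyl chain to diacylglycerol, was the most abundant per kilobase, at 198 CPM per kilobase in control livers against 10.5 for *Dgat1*. *Dgat2* stood at 512, 577, 656, 615 and 684 CPM in control livers 1 to 5 and at 543, 647, 501, 687 and 576 CPM in MI-883-treated livers 1 to 5. The groups covered nearly the same range, and the log2 fold change was -0.044 (SE 0.106, adjusted P = 0.873 from edgeR). *Dgat1*, at 32.0 ± 1.47 and 32.3 ± 0.927 CPM, varied least among the MI-883-treated livers, with a coefficient of variation of 4.58% in control and 2.87% in MI-883-treated livers, and *Agpat3* least among the controls (4.14% and 4.83%).

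*Gpam*, the mitochondrial glycerol-3-phosphate acyltransferase that starts the pathway, was at 119.7 ± 20.9 CPM in the control group and 142 ± 31.8 CPM with MI-883 (log2 fold change 0.25, standard error 0.153). *Agpat2* and *Agpat3*, which add the next acyl chain, had log2 fold changes of -0.10 and -0.034. *Lpin1* and *Lpin2* encode lipins, which dephosphorylate phosphatidate to diacylglycerol. *Lpin1* was at 119, 346, 144, 100.4 and 317 CPM in control livers 1 to 5 and at 148, 393, 125, 196 and 97.8 CPM in MI-883-treated livers 1 to 5. Control livers 2 and 5 and MI-883-treated liver 2 stood well above the other 7, and the coefficient of variation was 56.8% and 61.4%, the widest of the 34 in each group. Its log2 fold change was -0.097 (SE 0.409), the widest error of the 34. *Lpin2* was at 451 ± 74.1 and 455 ± 61.4 CPM (0.010).

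*Pnpla3*, which encodes a lipid droplet protein with lipase and acyltransferase activity, ranged from 3.56 to 10.8 CPM in control and from 5.28 to 9.33 CPM in MI-883-treated livers (log2 fold change 0.31, standard error 0.311). Control livers 1 and 5 stood at 10.8 and 9.08 CPM, apart from the other 3 controls at 3.56 to 4.03 CPM. *Pnpla5*, a lipase of the same family, was the least abundant of the 34, at 0.499 CPM per kilobase in control livers, with a log2 fold change of -0.046 (SE 0.336). *Lpcat3*, which puts polyunsaturated chains into phosphatidylcholine, was at 158 ± 7.64 and 169.6 ± 13.6 CPM (0.10), and 10.2% of its exon bases lie opposite *Emg1*.

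**Figure D5:**
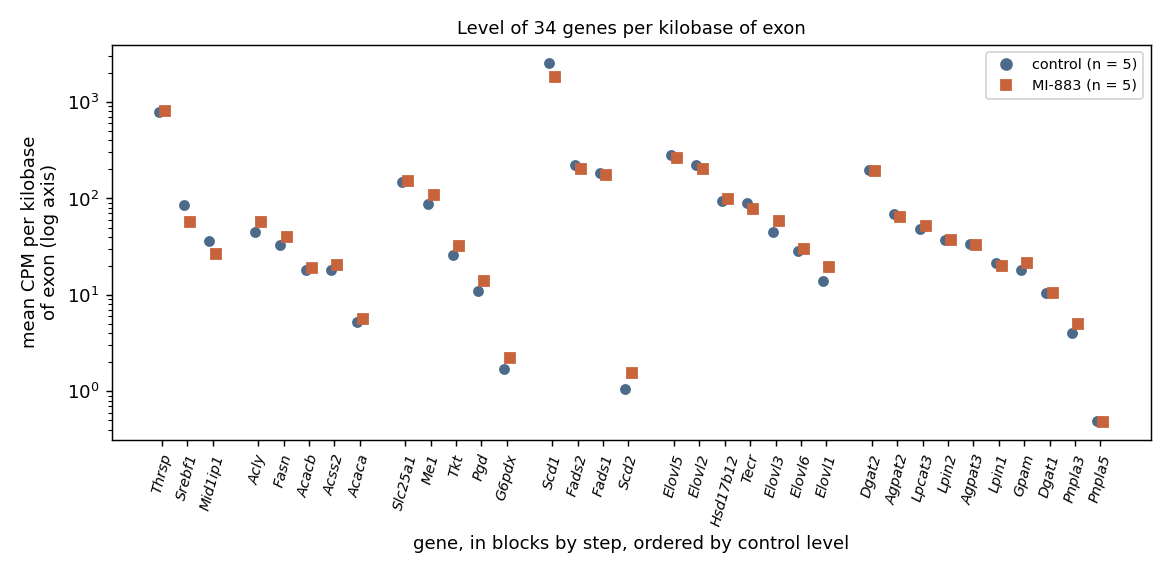
Mean level of the 34 genes per kilobase of exon (y axis, CPM per kilobase, log axis) in control and MI-883-treated livers (n = 5 each), in blocks by step and ordered by control level (x axis). *Scd1* is the highest at 2561 in control livers and *Pnpla5* the lowest at 0.499.

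The livers did not all follow their group across the 34 genes. Control liver 1 was the highest of its group for 16 of the 34 genes, and MI-883-treated liver 4 was the lowest of its group for 15. A mean score over the genes of each step (log2 CPM minus the mean of the gene over all 10 livers) overlapped between the groups in all 6 steps. For NADPH supply and citrate export it was -0.131 ± 0.185 in control and 0.131 ± 0.122 in MI-883-treated livers, with control liver 1 at 0.168 and MI-883-treated liver 4 at -0.035. For the regulators it was 0.166 ± 0.187 and -0.166 ± 0.129, with control liver 2 at -0.133 below 2 of the MI-883-treated livers. Of 9 genes that are known to rise in fasting, control liver 1 was the lowest control for 5 (*Pck1*, *G6pc*, *Igfbp1*, *Cpt1a* and *Angptl4*), the second lowest for 2 and the second highest for 2, *Pdk4* and *Fgf21*. It had 1420.3 CPM of *Pck1*, where the other controls had 2845 to 3987, and 16.2 CPM of *Pdk4*, where the control group spanned 6.13 to 18.5.

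Of 58 further genes of the same pathway, 55 were tested, and *Me3*, *Scd4* and *Elovl4* were below the filter. Their log2 fold changes were positive in 34 and negative in 21, with a median of 0.051. In edgeR 0 were called higher and 0 lower. At an unadjusted P under 0.05, 7 of the 55 were higher and 4 lower, where 8.09% and 7.49% of all tested genes were. In DESeq2 1 of the 55 was called higher, where 2.20% of all tested genes were. It was *Cyb5a*, which encodes the cytochrome b5 that passes electrons to the desaturases. *Cyb5a* was at 1413 ± 129 CPM in the control group and 1842 ± 295 CPM with MI-883, at a log2 fold change of 0.38 (SE 0.116, adjusted P = 0.149 from edgeR and 0.0317 from DESeq2). With scaling by total counts in edgeR its adjusted P was 0.0365. The other 17 regulators include the ChREBP gene, the liver X receptor genes and those of the SREBP escort and retention proteins. They held 0 called genes in edgeR or DESeq2, with 7 positive and 10 negative values and a median of -0.041. At an unadjusted P under 0.05 in edgeR 1 was higher and 3 lower, where 8.09% and 7.49% of all tested genes were.

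Markers of other cell types were read in the same livers. Of the adipocyte list, *Adipoq* had 0 to 4 counts, *Plin1* 0 to 2 and *Retn* 2 to 9 per liver, all below the filter, and *Lep* was not analysed here. *Cfd* fell from 12.3 ± 4.06 to 2.57 ± 1.24 CPM (log2 fold change -2.25, adjusted P = 0.0035 from edgeR). *Cidea*, the other tested gene of the list, had 849 to 2825 counts per liver. It was at 68.1 ± 11.7 and 65.2 ± 19.0 CPM (log2 fold change -0.063, adjusted P = 0.902 from edgeR). The summed level of the 2 tested genes of the list, most of it *Cidea*, was 68.6 to 93.8 CPM in control and 39.6 to 89.7 CPM in MI-883-treated livers. With *Adipoq*, *Plin1* and *Retn* so low, this sum and the fall of *Cfd* are not read as a measure of fat cells. In edgeR and DESeq2 none of the 25 tested genes of the Kupffer cell, endothelial, stellate, bile duct and lymphocyte lists was called, and the summed level of each list overlapped between the groups. Of these 25, 19 had positive and 6 negative log2 fold changes, against 0 and 6 in the hepatocyte list. At an unadjusted P under 0.05 in edgeR 6 of them were higher and 0 lower, the former 24% of the 25 where 8.09% of all tested genes were higher. Of 9 fasting genes, 7 had negative and 2 positive values, and 1 was called, *Pdk4*, which rose from 13.7 ± 4.72 to 33.3 ± 6.76 CPM (log2 fold change 1.27, adjusted P = 0.020 from edgeR). Of 10 tested clock genes, 3 had positive and 7 negative values and 0 were called in edgeR or DESeq2. At an unadjusted P under 0.05 in edgeR 2 of the 10 were lower, where 7.49% of all tested genes were. The summed level of the clock genes was 655 to 775 CPM in control and 620 to 666 CPM in MI-883-treated livers. Per the study's methods, blood was taken from the mice after 3 hours of fasting. The part of feeding state, time of day and cell makeup in the values of the 34 genes was not tested.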

How the data were processed

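RNA from liver was sequenced as paired-end reads from directional libraries. Per the labels and the study's methods, the authors trimmed reads with fastp 0.23.0, aligned them to mm10 with STAR and made gene counts with featureCounts. The versions of these last tools, the annotation and the strand setting are not given in the sources used here. The authors deposited raw counts per Entrez gene, without normalization. RefSeq gave symbols and positions for 16644 of the 16647 genes and held no entry for 3. Library totals were 24014461 to 36221514 counts in control and 23513665 to 28349963 in MI-883-treated livers (exact two-sided permutation test P = 0.111).

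A gene was tested if its sum over the 10 livers reached 60 counts (13219 genes, with 3428 below) in edgeR 4.0.16 under R 4.3.3, with TMM, the quasi-likelihood test, condition as the only term and Benjamini-Hochberg adjustment. The alternatives were the Wald test of DESeq2 1.42.0 without independent filtering, its size factors or total counts in edgeR, a minimum of 60 counts in every sample, filterByExpr, no filter, a replicate block and leaving out each liver. Other tables and exact tests over 252 splits used Python 3.11.15, and scripts were tested on simulated data. Exon lengths came from GENCODE, as did the 100-base stretches that a gene shares with others.

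The genes, lists and tests were chosen with earlier results of these data known. Genes given in every liver are those with an adjusted P under 0.05 in edgeR or DESeq2, those whose groups did not overlap and the most abundant of each step per kilobase, while *Lpin1* was added after its values were seen. Other genes are named where DESeq2 or edgeR called them in the pathway list or where they serve as a check.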

Additional observations from a re-analysis of the deposited data

Results flagged for a closer look

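The values below come from livers at the edge of their group of 5, where the distance to the next liver exceeded 0.71 of the whole range. Of 92 groups examined 6 held such a liver, and chance alone would give 4.6.

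*Mid1ip1* stood at 54.6 CPM in control liver 2, with the nearest control at 79.9. In control liver 1, *G6pdx* stood at 6.73 CPM (nearest 5.12) and *Elovl1* at 46.8 CPM (nearest 36.7). *Dgat1* was at 34.6 CPM in control liver 5, with the nearest at 31.9. In MI-883-treated liver 4 the mean score of the elongation genes was -0.255, with the nearest at 0.073. The ratio of *Acacb* to *Acaca* counts was 1.52 in MI-883-treated liver 3, with the nearest at 1.98. What set these livers apart was not tested.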

How the results depend on the processing

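The log2 fold changes of 32 of the 34 genes kept their sign in all 7 other fits of the whole table, and those of 24 kept it in all 10 fits that left out 1 liver. The test moved the counts most. DESeq2 called 291 genes higher and 172 lower of all tested genes, against 101 and 35 in edgeR, and among the 34 genes 2 higher and 3 lower, against 0 and 1, and 1 of the other pathway genes, against 0. With total counts, 0 of the 34 genes were lower and 1 other pathway gene was higher, and the sign of *Agpat3* turned (0.0070). The median of the assembly genes, -0.012, was 0.014 with the block and 0.032 with total counts.

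Livers that share a number had correlations of -0.12 to 0.36, where pairs with other numbers span -0.38 to 0.40. This gave no sign that the numbers pair livers, though a weak shared effect could be missed. The labels do not say whether the numbers pair them. The replicate block gave 72 genes higher and 17 lower of all tested genes, kept the 1 lower gene of the 34, *Srebf1* (-0.58, adjusted P = 0.023 from edgeR), and turned the sign of *Pnpla5* (0.017).

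Without 1 liver, edgeR called 52 to 148 genes higher and 9 to 60 lower of all tested genes, and 0 to 2 higher and 0 to 2 lower of the 34. Signs that turned were those of *Thrsp* (-0.060 to 0.12), *Acacb* (-0.0011 to 0.21), *Slc25a1* (-0.024 to 0.051), *Elovl5* (-0.15 to 0.021), *Elovl6* (-0.0024 to 0.14), *Lpin1* (-0.53 to 0.18), *Lpin2* (-0.064 to 0.065), *Dgat1* (-0.0035 to 0.041), *Dgat2* (-0.10 to 0.011) and *Pnpla5* (-0.22 to 0.25). The log2 ratio of *Scd2* to *Scd1* differed by 0.91 to 1.32, that of *Scd1* to *Fasn* by -0.89 to -0.62, that of *Acacb* to *Acaca* by -0.12 to 0.086 and that of *Lpin2* to *Lpin1* by -0.082 to 0.38. The causes of these shifts were not tested. With 5 livers in each group, the standard errors given were 0.057 to 0.409 on the log2 scale. Changes of that size are not resolved, and larger ones can also miss the threshold. An example is *Scd1*, at -0.48 (SE 0.129, adjusted P = 0.105 from edgeR). *Pnpla5*, *Scd2*, *Pnpla3* and *G6pdx* are limited by their counts as well.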
